A study of Drosophila melanogaster with 2 samples.

Results

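The Polycomb group genes described here were 10 genes of Drosophila melanogaster, Pc, Psc, Su(z)2, ph-p, ph-d, Asx, E(z), Su(z)12, esc and pho, out of 13945 protein-coding genes on the 6 chromosome arms. They were chosen by name and not by a measured value, although earlier results of these data were known. A peak was given to a gene when its summit lay between points 2 kb outside either end of the gene. The peaks came from chromatin immunoprecipitation and sequencing of Inv-eGFP, the homeodomain protein Invected fused to enhanced green fluorescent protein, in whole embryos aged 0 to 24 h of the transgenic strain inv-GFP. Per the labels the strain carries an insertion that targets inv. The antibody was raised against GFP, so the untagged paralog Engrailed was not measured. The samples formed 1 group, Inv-eGFP embryos, with 2 biological replicates and no second genotype, treatment or stage. Whole embryos pool all cell types and all ages of the 24 h window, and peak lists hold no expression values against which the labelled stage could be checked.

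Polycomb group proteins keep developmental genes such as the homeotic genes silent after the factors that first repressed them have gone. They act in complexes. Polycomb repressive complex 1 (PRC1) compacts chromatin and marks histones with ubiquitin, PRC2 methylates histones, the Pho repressive complex (PhoRC) binds DNA at Polycomb response elements, and the PR-DUB deubiquitinase removes ubiquitin from histones. The polyhomeotic gene ph-p is a known target of Engrailed, and en and inv are themselves classical targets of Polycomb silencing.

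Sequences at 4 of the genes are shown because the summits there differed in base composition, in the words of DNA near them and in their support by the replicates. All come from the Release 6 genome, which has the dm6 coordinates of the peak lists, and are written 5′ to 3′ on the strand of the gene, here the minus strand. Capitals mark 5 words of DNA searched on both strands: TAATTA, the core bound by Engrailed-class homeodomains, TATCGA, the core of the DNA replication-related element bound by Dref, GCCAT, the core bound by Pho, GAGAG, bound by GAGA factor, and CAGCTG, an E-box. The word GAGAG can overlap itself and TAATTA can share its last bases with TATCGA; each start was counted. The stretch at Pc was 101 bp centred on the pooled summit (chr3L:21318010-21318110), with TATCGA on the side of the transcription start site (TSS). The stretches at ph-p (chrX:2137936-2137964) and Su(z)12 (chr3L:19923332-19923360) were limited to 29 bp, because both summits lay in an annotated 5′ untranslated region (UTR), and held none of the 5 words. At ph-d there were 2 places. The upstream place, at the pooled summit, is shown over 201 bp (chrX:2123981-2124181), and the place at the TSS, where replicate 1 alone had its listed summit, over 101 bp (chrX:2123325-2123425).
Pc: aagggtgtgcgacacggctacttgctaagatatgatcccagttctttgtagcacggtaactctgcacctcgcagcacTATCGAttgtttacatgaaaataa
ph-p: acttaataaatcaactcaatacgtatgtc
ph-d, upstream: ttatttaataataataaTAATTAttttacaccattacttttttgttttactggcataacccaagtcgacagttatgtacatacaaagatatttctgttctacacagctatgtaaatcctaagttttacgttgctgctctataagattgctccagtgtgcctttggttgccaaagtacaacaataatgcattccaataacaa
ph-d, at the TSS: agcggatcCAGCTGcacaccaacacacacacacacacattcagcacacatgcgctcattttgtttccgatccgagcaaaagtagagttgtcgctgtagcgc
Su(z)12: aagtgcttgaactcatcaacttaaacaag

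The deposited lists rank peaks on the irreproducible discovery rate (IDR), a measure of how well a peak's rank repeats between data sets. Every thresholded list stopped at a score of 830, an IDR of 0.0100, and the highest score, 1000, means an IDR of at most 0.00391. The larger pooled thresholded list, called main here, held 3393 peaks on the arms and the smaller, called conservative, 2549. Replicate 1 alone had 2858 and replicate 2 alone 2129. The signal of a peak is the authors' own value on a scale that the labels do not state, so signals and ranks (rank 1 being the strongest) were read only within a list. In the main list signal ran from 2.07 to 3141 with a median of 132. Read depth is unknown, and control libraries were not analysed here. The tagged gene inv and its paralog en had main-list promoter summits with signals of 105 and 140. That of inv was listed in replicate 1 only and that of en in both replicates.

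Inv-eGFP had a main-list summit at 6 of the 10 Polycomb group genes: Asx, Pc, Su(z)12, ph-p, Su(z)2 and ph-d. Over all protein-coding genes the share was 37.7%. Psc, E(z), esc and pho had none. Each of the 6 genes had exactly 1 main-list summit, and each of these lay within 1 kb of the gene's own TSS, where 27.2% of all genes had one. By complex, a summit was found at 4 of the 5 PRC1 genes, at the 1 PR-DUB gene, at 1 of the 3 PRC2 genes and not at pho, the PhoRC gene.

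The count was close in the other lists. The conservative list had summits at 5 of the 10 genes, against 32.1% of all genes, and lacked ph-d. Replicate 1 alone had summits at 6 of the 10, against 34.9% of all genes, and these were the same 6 genes. Replicate 2 alone had summits at 5 of the 10, against 27.0% of all genes, and lacked Su(z)2. The peaks of 4 of the 6 genes (Pc, ph-p, Asx and Su(z)12) overlapped a listed peak of both replicates, as did 50.5% of all main-list peaks. The Su(z)2 peak overlapped one of replicate 1 alone and the ph-d peak one of replicate 2 alone.

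**Figure D1:**
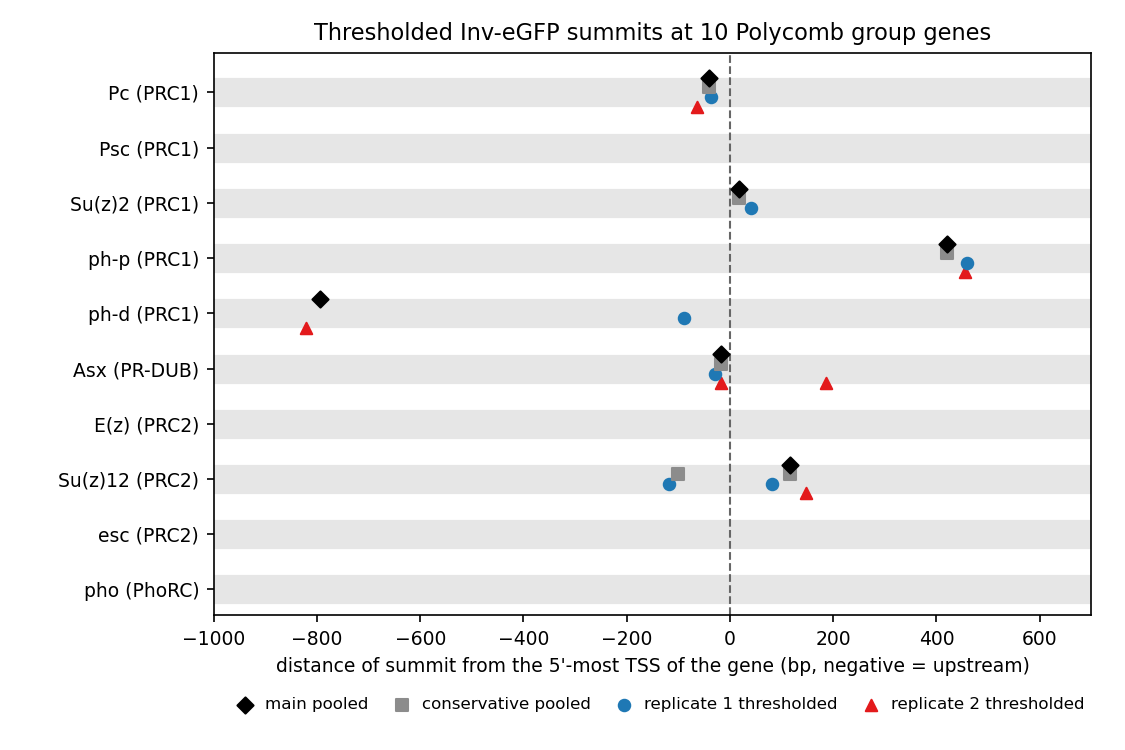
Distance of each thresholded summit from the gene's 5′-most TSS in bp, negative being upstream, for the 10 genes in the main, conservative, replicate 1 and replicate 2 lists (1 symbol per summit). Summits of 6 genes lie between 822 bp upstream and 460 bp downstream, the 2 replicates sit 733 bp apart at ph-d, and 4 genes have no symbol.

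Among the 5 PRC1 genes of the 10, Pc, which encodes the chromodomain subunit that binds methylated histones, had the strongest summit. Its main-list peak (chr3L:21317960-21318182) had a signal of 361 and rank 588 of 3393, in the upper 17.3% of the list. The summit lay 40 bp upstream of the only annotated TSS of Pc (FBgn0003042) and 714 bp from that of Rab26, a divergent gene. In replicate 1 the peak had a signal of 286 and rank 463 of 2858. In replicate 2 it had a signal of 72.6 and rank 1233 of 2129. The 2 replicate summits lay 3 and 24 bp from the pooled one, so both placed it at the same spot while ranking it differently: within the upper 16.2% in replicate 1 and the upper 57.9% in replicate 2.

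Su(z)2 (FBgn0265623) is the paralog of Psc and lies near it on the chromosome. The TSS of CG33798 lies between them, 2604 bp from that of Su(z)2. Su(z)2 had a main-list peak at chr2R:12996307-12996730 with a signal of 138 and rank 1641, near the middle of the list (48.4%). The summit lay 18 bp downstream of the TSS, in the 5′ UTR, with no TSS of another gene within 1 kb. Replicate 1 listed it with a signal of 92.8 (rank 1554, 54.4%) and a summit 23 bp away. Replicate 2 did not list it: its ranked list held a peak 26 bp from the TSS with a signal of 38.1 and a score of 514, an IDR of 0.0578. Of the replicates, replicate 1 alone therefore listed Su(z)2. The conservative list also held the peak, with a score of 1000, but the pooled lists include replicate 1 and are not separate support.

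Psc (FBgn0005624), a subunit that partners the catalytic RING protein, had no summit within 2 kb in any of the 4 thresholded lists. Its strongest ranked peak within 1 kb of a TSS had a signal of 57.3 in both pooled ranked lists. Its score was 559 (IDR 0.0451) in the longer of them, in which the main-list peaks were found, and 159 (IDR 0.414) in the other, in which the conservative ones were found; both are below the limit of 830. The longer list is meant below where the pooled ranked list is named alone. In replicate 1 the corresponding strongest peak had a signal of 32.0 and a score of 34, and in replicate 2 a signal of 27.1 and a score of 26. The nearest listed peak was farther out. A main-list summit (chr2R:12985041-12985464, signal 101, rank 2120, listed in replicate 2 only) lay 4259 bp upstream of Psc, between Psc and CG33798, and Psc had the nearest TSS. On the other side of Su(z)2, another main-list summit (signal 90.3, rank 2328, listed in replicate 1 only) lay 7820 bp beyond the gene end.

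The polyhomeotic genes ph-p (FBgn0004861) and ph-d (FBgn0004860) encode the SAM-domain subunits of PRC1 and lie next to each other on X as copies of an ancestral gene. The ph-p peak (chrX:2137738-2138161) had a main-list signal of 206 and rank 1154 (34.0%). Its summit lay 421 bp downstream of the 5′-most TSS, in the 5′ UTR, and no other gene had a TSS within 1 kb; the nearest, D2hgdh, lay 3118 bp from that of ph-p. Replicate 1 listed the peak with a signal of 63.6 and rank 2090 of 2858, and replicate 2 with a signal of 157 and rank 367 of 2129. Their summits lay 39 and 34 bp from the pooled one. The position was thus shared, but the peak stood low in the list of replicate 1 (73.1%) and high in that of replicate 2 (17.2%).

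Few peaks were ranked so differently in that direction. The rank percent of ph-p in replicate 1 minus that in replicate 2 was 55.9 percentage points, and 4 of the 1714 main-list peaks found in both replicates (0.233%), ph-p included, had a difference at least as high. Over all 1714 the median difference was -8.04. The other 3 genes with both replicates lay on the opposite side, at -41.7 for Pc, -19.8 for Su(z)12 and -12.5 for Asx; 96.5%, 73.3% and 60.4% of the 1714 peaks had a difference at least as high as theirs. The lists differ in length, so these differences describe rank and do not measure a change in binding.

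**Figure D2:**
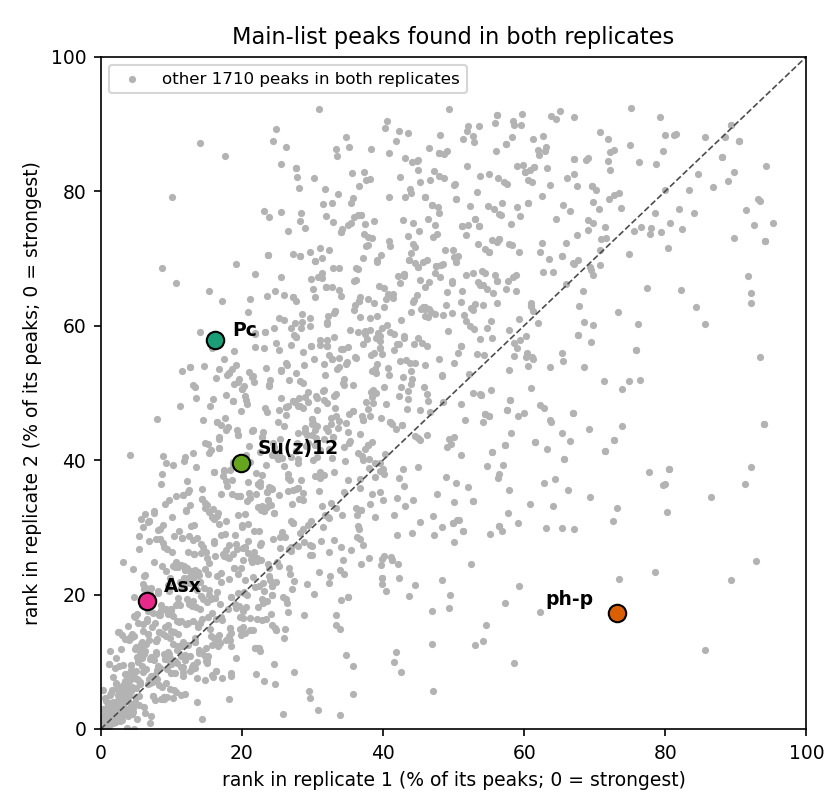
Rank in replicate 2 against rank in replicate 1, each as a percent of the peaks in that replicate's thresholded list (0 is the strongest), for the 1714 main-list peaks found in both; coloured points are Polycomb group genes and grey points the rest. The dashed line marks equal rank: ph-p, at 73.1 and 17.2, lies far below it, and Pc, at 16.2 and 57.9, well above.

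The ph-p summit also stood apart in base composition. The 101 bp at the ph-p summit held 21.8% G and C, against a median of 41.6% over all main-list summits, and 64 summits (1.89%) held as little. In the 353 of these 1714 peaks with the lowest GC the median difference was -2.45, and across peaks GC and the difference had a Spearman rho of -0.163. The ph-p summit was farther from a TSS than most, as 19.9% of main-list summits lay at least as far. The main-list summit of ph-d lay farther still (16.0%). The 102 peaks in both replicates that lay over 400 bp from a TSS had a median of 1.20, against -8.62 for the 1612 nearer ones. On X the median was -7.76 over 370 peaks. These are medians over many peaks, which cannot be set against the value of a single peak. The part of GC and distance in the 55.9 of ph-p was not tested.

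At ph-d the replicates listed different places. The main-list peak (chrX:2123869-2124292) had a signal of 86.7 and rank 2412 (71.1%), with its summit 795 bp upstream of the TSS and 27 bp from the replicate 2 summit, which had a signal of 65.8 and rank 1375 of 2129. In replicate 1 this upstream place was ranked only, with a signal of 28.4 and a score of 207 (IDR 0.317). Replicate 1 instead listed a summit 89 bp upstream of the TSS, 706 bp from the main-list one, with a signal of 54.4, a score of 926 (IDR 0.00589) and rank 2359 of 2858. At that place the pooled ranked list had a score of 452 (IDR 0.0816), and the ranked list of replicate 2 had no summit within 100 bp. The conservative list held neither place; in the ranked list from which it came the upstream peak had a score of 571 (IDR 0.0422).

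Parts of ph-p and ph-d are alike in sequence, so some reads might fit both copies. Whether any did was not examined. Alignment of the 2 regions gave 7 blocks, the longest 3999 bp at 94.4% identity, and 57.8% of the ph-d gene was aligned to ph-p. That longest block overlapped neither main-list peak. Around the 5′ ends there were 4 blocks, at 91.3%, 84.3%, 80.0% and 83.0% identity in the order from inside the gene outwards. Both pooled summits lay in the same gap, between the blocks at 80.0% and 83.0%, where 216 bp at ph-p and 311 bp at ph-d were not aligned. The ph-p summit was close to the edge of the block at 83.0%, the ph-p stretch shown above runs into that block, and both peaks reached into aligned sequence. The replicate 1 summit at the ph-d TSS lay inside the block at 91.3% identity, 519 bp long. How the authors treated reads that fit both copies is not given in the sources used here, and its effect on the ph-p and ph-d values was not tested.

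**Figure D3:**
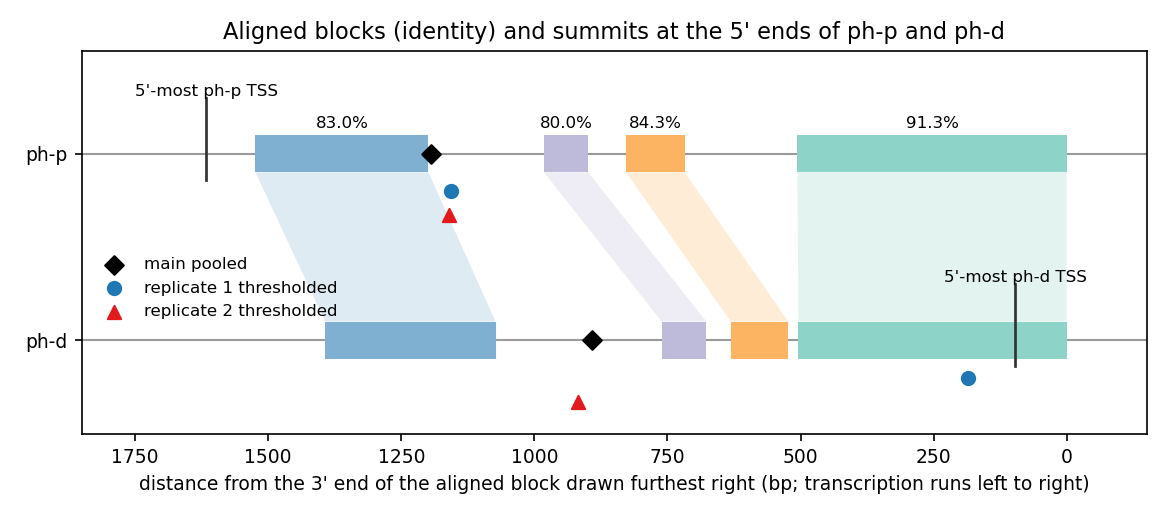
Aligned blocks at the 5′ ends of ph-p (upper line) and ph-d (lower line), with percent identity, 5′-most TSSs and thresholded summits; the horizontal axis is distance in bp along each copy, with transcription from left to right, and replicate symbols are set below the lines. Both pooled summits (diamonds) lie between the blocks at 83.0% and 80.0% identity, and the replicate 1 summit of ph-d lies over the block at 91.3%.

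Asx (FBgn0261823), the cofactor of the PR-DUB deubiquitinase calypso, had the strongest main-list summit of the 10 genes. Its peak (chr2R:14503764-14504096) had a signal of 618 and rank 215, within the upper 6.34% of the list. The summit lay 18 bp upstream of the 5′-most TSS of Asx and 452 bp from that of Cpsf160, a divergent gene that encodes a subunit of the cleavage and polyadenylation complex. Replicate 1 had a signal of 467 (rank 189, 6.61%) and replicate 2 a signal of 149 (rank 406, 19.1%), with summits 10 and 0 bp from the pooled one. Replicate 2 split the region into 2 peaks, the second with a signal of 12.4 and rank 2021. Of the 4 genes whose main-list peak was listed in both replicates, Asx had the smallest difference in rank between them.

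Of the PRC2 genes, Su(z)12 (FBgn0020887), a core subunit, had a main-list peak (chr3L:19923221-19923462) with a signal of 355 and rank 611 (18.0%). The summit lay 116 bp downstream of its only TSS, in the 5′ UTR, and 325 bp from the TSS of the divergent gene Pfdn6, which encodes a prefoldin subunit. Replicate 1 had a signal of 249 (rank 566, 19.8%) and replicate 2 one of 97.2 (rank 844, 39.6%). The conservative list and replicate 1 each held another, weaker peak on the far side of the TSS. In the conservative list that peak had a signal of 76.6 (rank 2287 of 2549), 100 bp upstream of Su(z)12 and 109 bp from Pfdn6. In replicate 1 it had a signal of 57.7 (rank 2262) and its nearest TSS, at 91 bp, was that of Pfdn6. The 2 TSSs lie 209 bp apart, within 1 peak width, so a summit there cannot be given to either gene alone.

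The other 2 PRC2 genes had no listed summit. E(z) (FBgn0000629), the histone methyltransferase, shares its promoter with Cnep1r2, whose divergent TSS lies 16 bp away. Its strongest ranked promoter peak had a signal of 54.0 in both pooled ranked lists, with a score of 222 (IDR 0.292) in the longer and 52 (IDR 0.749) in the other. The strongest had a signal of 28.0 and a score of 209 in replicate 1, and 27.0 and 23 in replicate 2. The best-scoring ranked peak within 2 kb (score 429, IDR 0.0927, in the longer pooled list and 411, IDR 0.102, in the other) was nearest another gene, CG18628, at 110 bp. For esc (FBgn0000588), the WD-repeat subunit, the score was 62 (IDR 0.709) in the longer pooled list and 50 (IDR 0.758) in the other, with a signal of 35.6 and a score of 201 in replicate 1, and 16.2 and 24 in replicate 2. None of these came near the score of 830.

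The gene pho (FBgn0002521) encodes the zinc-finger DNA-binding subunit of PhoRC, the fly counterpart of YY1, and lies on the small chromosome 4. It had no peak within 1 kb of its TSS in any of the 4 ranked lists, although 92.7% of all genes had one in the pooled ranked list, 89.8% in replicate 1 and 86.0% in replicate 2. In the gene or within 2 kb the pooled ranked list held 4 peaks, of which the best had a score of 98 (IDR 0.581) and lay 5029 bp from the TSS; in the other pooled list its score was 19. The ranked lists thus held no Inv-eGFP peak at the pho promoter. The share among genes of chromosome 4 alone was not counted, so this absence cannot be called particular to pho.

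All the genes but pho formed an order by their strongest ranked peak within 1 kb of a TSS. Each was set among the genes that had such a peak in the same list. These numbered 12928 in the pooled ranked list, 12525 in replicate 1 and 11992 in replicate 2, so the sets differ between lists. In the pooled ranked list, 97.2% of these genes had a lower value than Asx, 92.5% than Pc and 92.2% than Su(z)12. Then came ph-p at 85.9%, Su(z)2 at 80.7% and ph-d at 74.1%, followed by Psc at 62.3%, E(z) at 59.4% and esc at 55.5%. Across the replicates Asx kept a narrow range, 97.4% in replicate 1 and 94.4% in replicate 2, and Su(z)12 had 92.4% and 89.2%. The shares for Pc were 93.8% and 84.6%, for ph-p 75.3% and 94.9%, for ph-d 72.5% and 83.1%, and for Su(z)2 80.9% and 73.5%. The order of the middle genes thus depended on the replicate: in replicate 1 ph-p stood below Asx, Pc, Su(z)12 and Su(z)2, and in replicate 2 it stood above them all. Psc had 55.4% and 60.2%, E(z) 48.2% and 60.0% and esc 60.2% and 24.0%, so these 3 could not be ordered.

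**Figure D4:**
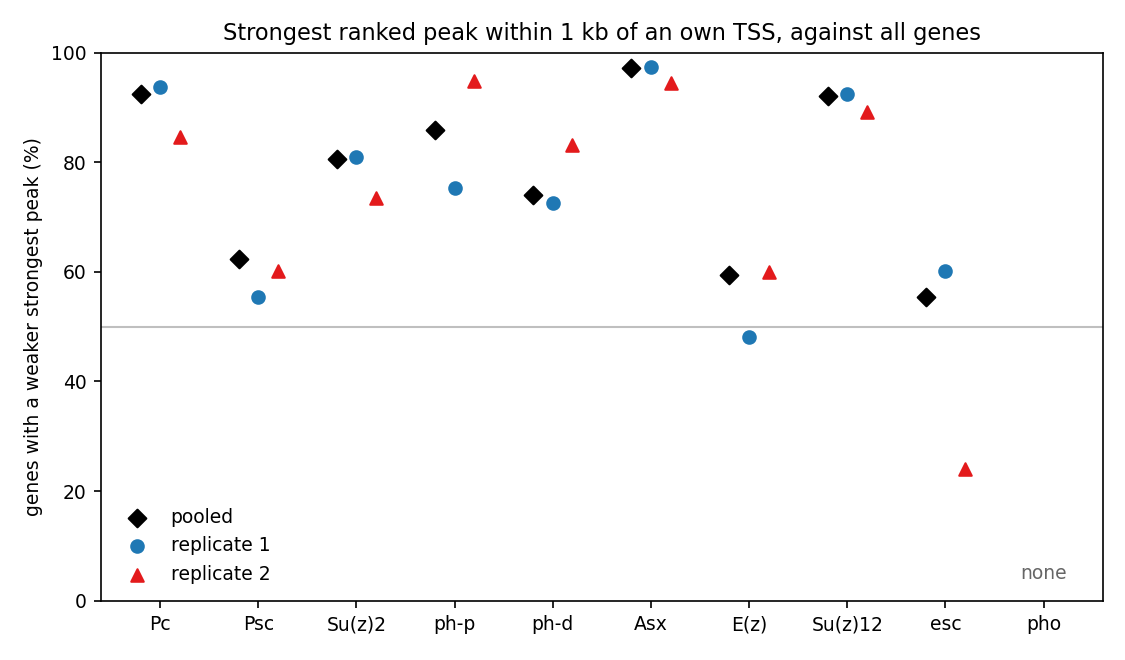
Strongest ranked peak within 1 kb of a TSS in the pooled ranked list, replicate 1 and replicate 2. The vertical axis is the percent of genes with such a peak in that list whose strongest was weaker than that of the gene named. The grey line marks 50%. Asx, Pc and Su(z)12 stay above 84% in all 3 lists, ph-p moves between 75.3% and 94.9%, and pho has no such peak.

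**Figure D5:**
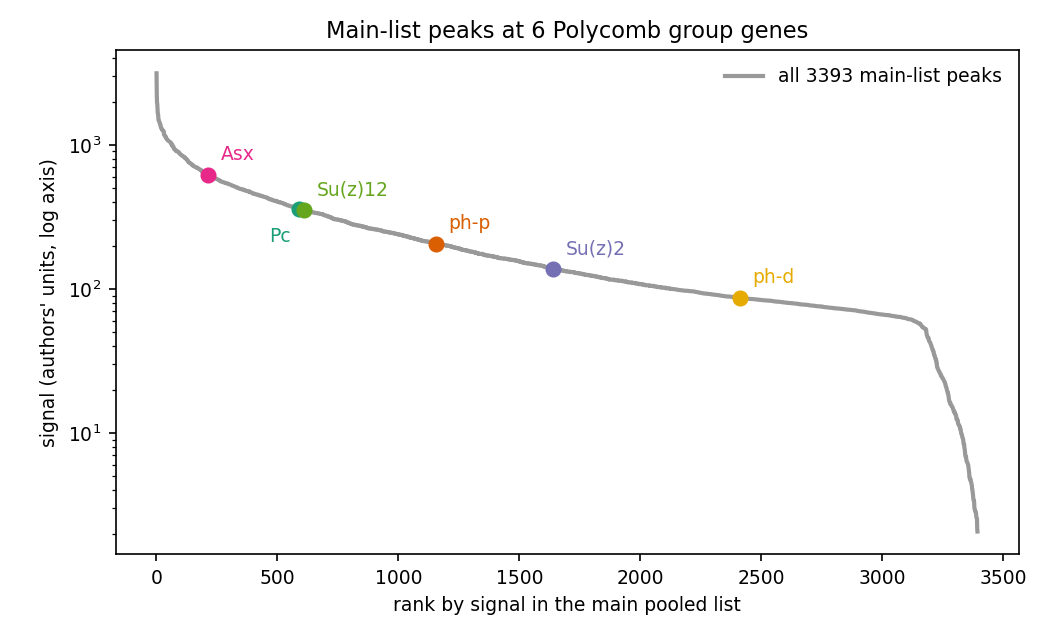
Signal in the authors' units (log axis) against rank for all 3393 main-list peaks, grey line, with the peaks of the 6 Polycomb group genes marked. They run from Asx at 618 and rank 215 down to ph-d at 86.7 and rank 2412.

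The signals of the 6 genes spread over most of the list. Peak width separated them as well: Pc at 223 bp, Su(z)12 at 242 bp and Asx at 333 bp were narrower than the usual 424 bp, and the other 3 had that width. In the whole main list the 1034 narrower peaks had a median signal of 374 and the other 2359 a median of 96.7. Each of the 3 narrow peaks lay at a promoter with a divergent partner, Rab26, Pfdn6 and Cpsf160, within 1 kb. None of Su(z)2, ph-p and ph-d had another gene's TSS within that distance. How many of the narrower and of the other main-list peaks have such a partner was not counted. These 6 peaks therefore cannot show a link between peak width and a divergent partner.

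The words of DNA at the summits differed among the genes too. Within 50 bp of the summit, TATCGA lay at Pc (29.5 bp away, in capitals above) and Asx (39.5 bp), 2 of the 6, against 39.0% of all main-list summits. TAATTA lay at 0 of the 6, against 4.98% of all, GCCAT at 0 (18.2%), GAGAG at 0 (9.78%) and CAGCTG at 0 (7.40%). Within 500 bp, TAATTA lay at 4 of the 6, against 48.0% of all main-list summits. The nearest TAATTA was 80.5 bp from the summit at ph-d, which had 4 within 500 bp, 144 bp at Pc, 218 bp at Su(z)12, 326 bp at Su(z)2, 664 bp at Asx and 1504 bp at ph-p. Within 500 bp GCCAT lay at 6 of the 6 (82.8% of all), GAGAG at 4 (66.3%), CAGCTG at 4 (43.1%) and TATCGA at 3 (68.2%); Su(z)2 had 12 occurrences of GAGAG and ph-p had 7. These are matches of letters and say nothing about which protein was bound.

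G and C content of the 101 bp at the summit ran from 21.8% at ph-p through 30.7% at Su(z)12, 36.6% at ph-d, 44.6% at Pc and 48.5% at Su(z)2 to 54.5% at Asx. The strong peaks of Asx and Su(z)12 thus stood far apart in this range.

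Other Polycomb genes were taken from a list of 23, made with earlier results of these data known. Besides further genes of the same complexes it held 7 DNA-binding recruiters and 3 others, so its shares are not those of complex subunits alone. Of the 23 genes, 18 (78.3%) had a main-list summit in the gene or within 2 kb. Within 1 kb of their own TSS, 15 (65.2%) had one. The shares of all genes were 37.7% and 27.2%. The conservative list had 15, replicate 1 had 16 and replicate 2 had 13. Summits lay at 4 of 5 further PRC1 genes, 3 of 5 PRC2 genes, 2 of 2 PhoRC genes, 0 of 1 PR-DUB gene, 7 of 7 DNA-binding recruiters and 2 of 3 others. The strongest promoter summits of PRC1 genes were at l(3)73Ah, a RING-finger gene (signal 574), Scm (331) and RYBP (316). Caf1-55, a histone chaperone found in PRC2, had 163 and the PRC2 accessory gene Jarid2 had 110. The PhoRC genes phol, the paralog of pho, and Sfmbt, the partner of Pho, had 105 and 79.7, whereas pho had no summit. Among recruiters Spps had 563, lolal 469 and grh 131, and among the others mxc had 453 and sxc 139. Of these named promoter summits, those of Caf1-55, Jarid2 and Sfmbt were listed in replicate 1 only and that of sxc in replicate 2 only. The rest were listed in both. The nearest TSS was that of another gene for Jarid2 (Uch-L5), Spps (CG13609) and mxc (Larp7), so these summits cannot be given to the listed gene alone. The list members without a summit were Sce, the catalytic RING subunit of PRC1, escl, the paralog of esc, jing, caly, which encodes the deubiquitinase calypso, and crm. In PR-DUB, Asx thus had the strongest summit of the 10 genes and its partner caly had none.

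Trithorax group genes, which counteract Polycomb silencing, had a main-list summit at 11 of 17 (64.7%), and at 9 (52.9%) within 1 kb of an own TSS, against the same shares of all genes. The strongest were at kis (634), a chromatin remodeller, Utx (577), a histone demethylase, and Rbbp5 (542), a subunit of histone methyltransferase complexes; the last summit was nearer the TSS of eRF1 than that of Rbbp5. There was none at trx, brm, mor, vtd, Set1 and wds. The difference between the Polycomb and Trithorax shares was not tested.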

How the data were processed

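Peak lists were from anti-GFP ChIP-seq of Inv-eGFP embryos, 1 group of 2 biological replicates. The authors deposited ranked and thresholded lists on dm6 for each replicate and for the pooled replicates, ordered by IDR and then cut at a threshold, per the labels. Neither aligner nor peak caller is given in the sources used here. In the ranked lists 8 unnamed columns were not used. The deposited score is a rescaled IDR: recomputed from the authors' deposited −log10 IDR column, it matched within 1 for 100% of the peaks of both pooled ranked lists. The deposited signal is the authors' own value per peak, on a scale not stated. All 3406 main-list peaks and all 2554 conservative ones were found in the ranked list each came from; off-arm peaks were left out.

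Members and lists were chosen with earlier results of these data known. Genes and TSSs came from Ensembl release 115 and sequence from genome Release 6. caly was matched through a synonym. Named genes were the 10 members, genes with a TSS within 1 kb of their summits, up to 3 per role of the other lists by promoter signal, and those without a summit. No test was made across genes or samples, since there was 1 group; counts stand beside the same count over all genes or peaks. Copies were aligned with blastn 2.17.0 (e-value limit 1e-10). Replicate support was an overlap of at least 1 bp. GC content, peak width, alignment blocks and TATCGA at TSSs were described after the data were seen. Assignment and word search were tested on simulated data. Depth is unknown, so no interval could be given. Python 3.11.15, numpy 2.4.6, pandas 2.3.3 and matplotlib 3.10.9 were used.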

Additional observations from a re-analysis of the deposited data

How the results depend on the processing

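Of 40 alternative values for the counts over gene lists and for replicate support, 35 stayed within 1.5 times the value reported and 5 did not. Without any window, so that a summit had to lie inside the gene, the count fell to 3 Polycomb group genes and 3 summits, 9 of the other Polycomb genes and 3 Trithorax genes, by construction of the narrower rule, and 1331 of all 13945 genes, against 5261 with the window. Assignment to the nearest TSS gave 6 Trithorax genes and 2899 of all genes. The list of replicate 1 alone gave 6 of the 10 genes, 6 with a summit at their own TSS, 7 summits, 16 other Polycomb genes and 11 Trithorax genes. For replicate 2 alone these counts were 5, 5, 6, 13 and 10. A window of 5 kb and the nearest TSS each gave 7 of the 10 genes, Psc being the gene added; all genes with a summit then numbered 6923 and 2899. Support by both replicates stayed at 4 peaks under the 3 other rules of overlap. The count of TATCGA at the 6 summits was 2 within 100 bp and 0 within 25 bp, that of TAATTA 1 and 0, and that of GAGAG 1 and 0. Shares of all main-list summits were not counted at these windows, so the changes cannot be set against them. No paired analysis was possible because there was 1 group. No depth was known for either library, so a missing peak could not be set against it.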

Other observations

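TATCGA was also counted at the promoters themselves, a description added after the data were seen. It lay within 100 bp of an own TSS in Pc, Asx and Psc, of which Pc and Asx had a main-list promoter summit. Of the 7 Polycomb group genes without it, Su(z)2, ph-p, ph-d and Su(z)12 had a promoter summit and E(z), esc and pho did not. Over all genes, 58.9% of the 3605 with TATCGA there had a promoter summit, against 16.2% of the 10340 without it.

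The ph-p and ph-d region with 2 kb on either side, 26.6 kb in all, held 10 occurrences of TAATTA, 0.375 per kb, against 0.681 per kb over the X chromosome.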
